A study of Mus musculus with 12 samples.

Results

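Gene expression was compared between mouse embryonic stem cells (ESCs) with and without a knockdown of Ino80, 6 days after the hairpin was delivered. The comparison rests on 4 of the 12 arrays of the experiment. The tested samples were 2 cultures of J1, an ESC line, that carried a lentiviral short hairpin RNA against Ino80 (shIno80). They were set against 2 cultures of the same line and day with a non-targeting hairpin (shNT). Both groups were harvested at 144 hours and listed as biological replicates, and the labels name no other genetic change in either. The cells had been kept in ESGRO medium, and the labels give M15 medium for the time of infection, whereas the sample descriptions speak of transfection. Both groups therefore share the virus, the medium and the day, and 1 hairpin is named for each, so that an effect of this hairpin other than on Ino80 cannot be told apart from the knockdown. Nothing in the sources says whether the 2 replicates came from separate infections. The spread behind the standard errors and p-values was estimated from the replicates of all 12 arrays together. It reflects differences within replicate pairs, which may be technical in origin.

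INO80 is a chromatin remodeller that slides and spaces nucleosomes with the energy of ATP, and the Ino80 protein is its motor and scaffold. Mouse ESCs keep their undivided potential through a network of transcription factors with Oct4 (encoded by Pou5f1), Sox2 and Nanog at its core. In the embryo the first cells to leave this state form the trophectoderm, an epithelium that gives rise to the placenta, and ESCs that lose Oct4 are known to turn on trophectoderm genes.

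Total RNA was labelled and hybridised to 1-colour Agilent arrays. Values are log2 processed intensities minus the array's own 75th percentile, so that 0 marks a spot as bright as that percentile. They are called levels below and are compared between groups for the same gene, never between genes. A summed level adds the linear levels of a list's genes, so bright probes weigh most. It is to be compared between groups for the same list only. The 75th percentile itself was 1643 and 1505 in shIno80, the highest of the 12 arrays, against 1238 and 1265 in shNT. The scanner software marked 61.89% to 66.87% of the probes of an array as well above background, and genes with such a mark are called seen. The scanner files and the value table of the deposit place 2 of the 4 arrays in opposite groups. Groups were taken from the columns of the value table, under which replicates correlated at r = 0.9929 in shIno80 and 0.9916 in shNT and arrays of opposite groups at 0.9452 to 0.9497. Under the other record, replicates correlated at 0.9476 and 0.9482 and no gene passed the limma test, with 446 genes at an unadjusted p under 0.05. Every direction below therefore holds only for the value table's groups, and the position on the slide cannot be told apart from the group.

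Ino80 itself had levels of -0.23 and -0.01 in shIno80, against 1.89 and 2.05 in shNT. The groups lay far apart, and the fold change was -2.09 ± 0.17, adjusted p = 2.62e-05 on the log2 scale (SE, limma with Benjamini-Hochberg adjustment, 2 arrays per group here and throughout). The reported probe maps to chr2:119114157-119114216 of the mm7 build on which the array was designed. The other 2 probes of the gene, at chr2:119123739-119123798 and chr2:119147677-119147736, had log2 fold changes of -2.05 and -1.95. Since the groups were read from a record chosen with these values in view, this drop is no independent check of the labels.

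Of the 16 listed subunits of the INO80 complex, 15 were measured, and 7 of them fell while none rose. Over all 19181 genes measured, 29.5% fell and 21.0% rose, and these shares are to be set beside every count of a list below. Besides Ino80, the falls were mainly in subunits that INO80 shares with other complexes and in its actin-related module. Actl6a, an actin-related protein also found in SWI/SNF complexes, stood at 3.52 and 3.77 in shIno80, against 4.67 and 4.74 in shNT, with a fold change of -1.06 ± 0.11, adjusted p = 1.36e-04. The AAA+ ATPases Ruvbl1 and Ruvbl2 fell too, with log2 fold changes of -0.57 ± 0.12 and -0.72 ± 0.09. Actr5, an actin-related protein particular to INO80, changed by -0.61 ± 0.11. The smaller falls of Nfrkb (-0.37 ± 0.12) and Actr8 (-0.35 ± 0.11) were lost without any 1 of the 4 arrays, with Nfrkb between -0.43 and -0.32 and Actr8 between -0.39 and -0.32. The remaining 8 members did not pass, and their values ran from -0.34 for Ino80c to 0.37 for Uchl5, the deubiquitinase of the complex. Between these lay Ino80e (-0.33), Actb (-0.26), Yy1 (-0.22), Mcrs1 (-0.20), Tfpt (-0.09) and Ino80b (0.29), and Ino80d was not seen on both arrays of any group. The median over the 15 subunits was -0.34, against -0.14 over all genes. The counts depended on the processing. Of 11 measured INO80-specific subunits 4 fell here, but 2 fell and 1 rose with quantile normalization and likewise with the deposited value table. With the normexp background 1 of them fell and none rose. Of 4 shared subunits 3 fell here and with quantile normalization, 2 with the value table and 1 with normexp.

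About 1 in 2 genes differed between the groups. Of 19181 genes, 9699 passed the test (50.6%), 4034 higher and 5665 lower in shIno80. More genes fell than rose, while more rises than falls had a large fitted change. A fitted change of 8-fold or more was found for 290 genes that rose and 110 that fell, and one of 16-fold or more for 102 and 23. These counts, and those at 2-fold, include genes with a group below background. For such genes the fitted size is not a measured one, and the lower bound can be smaller, as for Oas1d (fitted 22.1-fold lower, at least 7.57-fold). At 2-fold the 2 directions were near equal, with 2216 genes higher (11.6%) and 2059 lower (10.7%). The median SE of a fold change was 0.17, and the 2 arrays of shIno80 lay on 1 side of the 2 of shNT for 14754 genes (76.9%). The share of calls that were higher was 41.6%, and it was 37.9% with median scaling and 45.7% with quantile normalization. With the deposited value table, which holds mean spot intensities instead of processed ones and is scaled otherwise, it was 62.0%. There the median over all genes moved to 0.06. All directions are relative to an array's 75th percentile.

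**Figure D1:**
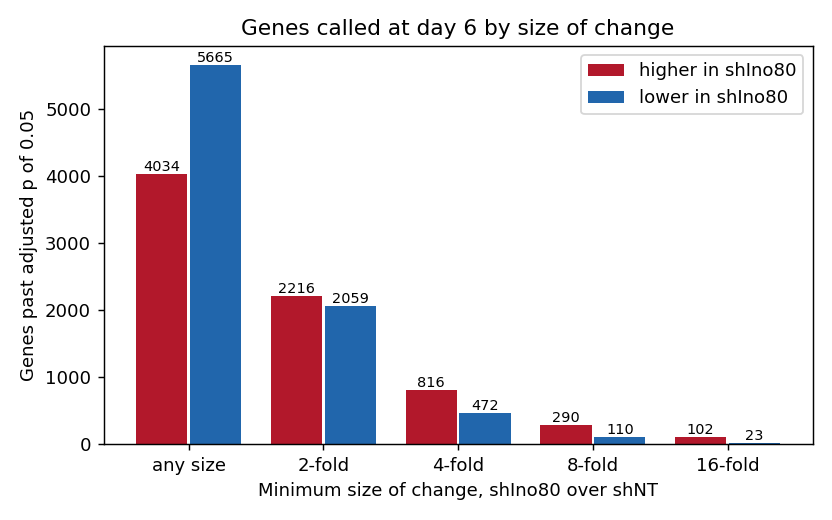
Number of genes past the limma threshold at day 6 by minimum size of the fitted change, for genes higher in shIno80 (left bar of each pair) and lower in shIno80 (right bar). Genes with a group below background are included at their fitted size, which is not a measured one. Lower calls outnumber higher ones without a minimum (5665 against 4034), the bars are near equal at 2-fold, and higher calls prevail at 8-fold (290 against 110).

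Genes of the pluripotency network fell nearly without exception. Of 37 listed genes, 34 were measured, all of them seen on all 4 arrays, and 31 fell, 1 rose and 2 did not pass. Their median was -1.73, against -0.14 over all genes. Among the core factors, Nanog had levels of 0.89 and 1.36 in shIno80, against 3.73 and 3.96 in shNT, a fold change of -2.72 ± 0.30, adjusted p = 1.42e-04. Pou5f1 stood at 3.84 and 4.07 in shIno80, against 5.74 and 5.87 in shNT (-1.85 ± 0.17), and Sox2 at 2.06 and 2.04 in shIno80, against 3.79 and 3.84 in shNT (-1.76 ± 0.11). No array of a group overlapped with the other group for any of the 3, as was so for 76.9% of all genes. The levels left in shIno80 were still well above background. In bulk RNA, fewer cells that express a gene and less RNA per cell cannot be told apart.

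The naive factors, which hold ESCs in the state of the early epiblast, fell in 13 of 14 measured members. The deepest drops were those of Tcl1, a coactivator of Akt (-3.26 ± 0.28), the orphan nuclear receptors Esrrb (-2.53 ± 0.23) and Nr0b1 (-2.45 ± 0.30), and the T-box factor Tbx3 (-2.36 ± 0.15). Esrrb stood at 2.35 and 2.94 in shIno80, against 4.96 and 5.38 in shNT. Klf4 changed by -1.98 ± 0.16 and Zfp42, also known as Rex1, by -1.84 ± 0.15. Klf2 fell least (-0.64 ± 0.10), and Klf5, the third of the Krüppel-like factors that support self-renewal, was at 3.72 and 3.92 in shIno80, against 4.09 and 4.27 in shNT and did not pass (adjusted p = 0.0898). Other genes of the undifferentiated state fell as well, among them Spp1 (-2.87 ± 0.12), the Nodal antagonists Lefty2 (-2.28 ± 0.40) and Lefty1 (-2.02 ± 0.38), and the Oct4 target Fbxo15 (-2.11 ± 0.14). Dnmt3l, a cofactor of DNA methylation, did not pass (-0.08 ± 0.09, adjusted p = 0.457). The exception in direction was Dppa3, a maternal factor that shields methylated DNA, at 0.30 and 0.82 in shIno80, against -0.26 and -0.41 in shNT (0.89 ± 0.27). Its call was lost without shIno80 replicate 2 (0.64, adjusted p = 0.153), shNT replicate 1 (0.97, adjusted p = 0.0596) or shNT replicate 2 (0.82, adjusted p = 0.0995).

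**Figure D2:**
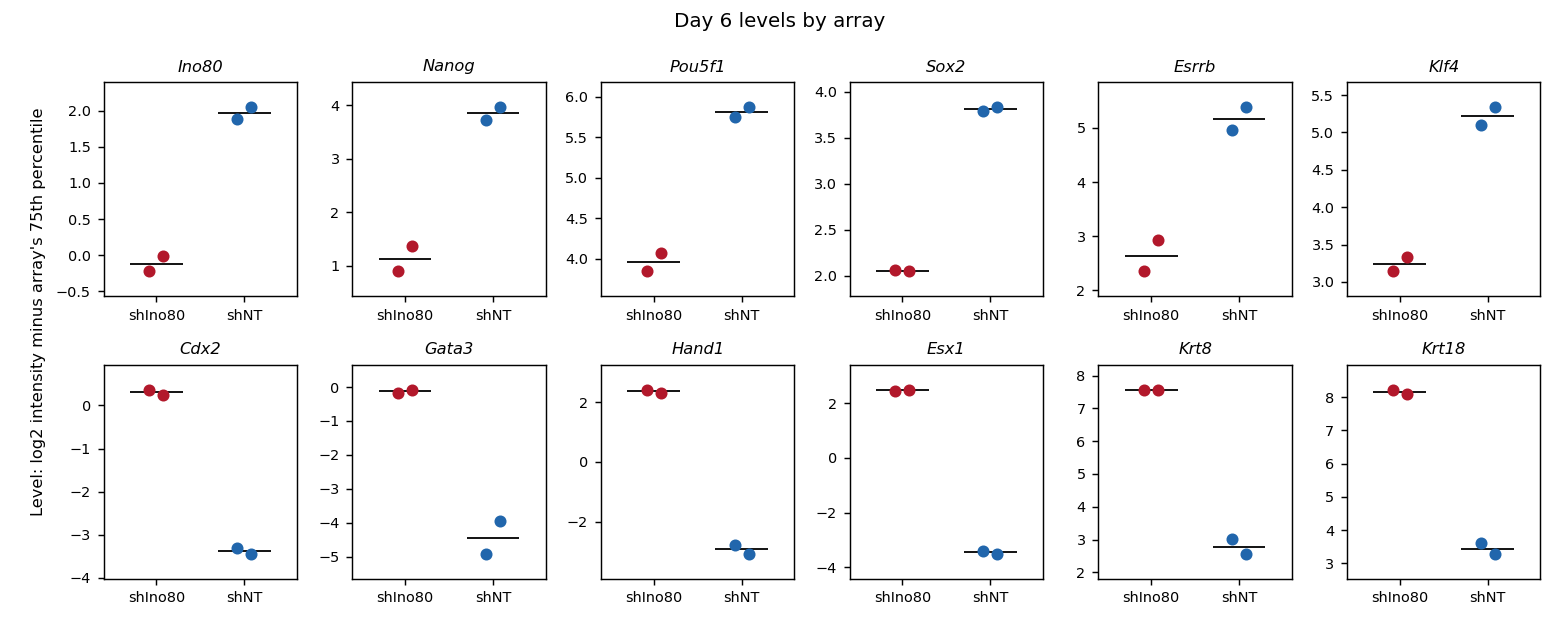
Levels (log2 processed intensity minus the array's 75th percentile) of 12 genes on the 4 arrays of day 6, with shIno80 left and shNT right in each panel, 1 point per array and a line at the mean of 2; each panel has its own axis. Ino80 and 5 pluripotency genes lie lower in shIno80, and 6 trophectoderm or epithelial genes lie higher. No panel has an overlap between groups, as was so for 76.9% of all genes.

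Transcription factors of the trophoblast moved the other way. Of 29 listed, 27 were measured, and 19 rose, 2 fell and 6 did not pass, with a median of 1.5, or 1.5 with 3 genes seen in only 1 group at their bound. The homeobox gene Esx1, which marks the placental labyrinth, was at 2.45 and 2.49 in shIno80, against -3.38 and -3.52 in shNT (5.92 ± 0.11, adjusted p = 1.98e-07). Hand1, a bHLH factor of trophoblast giant cells, was at 2.41 and 2.32 in shIno80, against -2.77 and -3.09 in shNT (5.29 ± 0.13, adjusted p = 4.89e-07). Both genes were seen in both groups, and the differences were 60.6-fold and 39.2-fold.

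Cdx2, the factor that sets the trophectoderm apart, had levels of 0.36 and 0.25 in shIno80, against -3.30 and -3.45 in shNT (3.68 ± 0.51, adjusted p = 4.68e-04). Its partner Gata3 reached -0.17 and -0.08 in shIno80 and -4.93 and -3.95 in shNT (4.31 ± 0.32). Tead4, which acts upstream of Cdx2, rose by 2.03 ± 0.12, Tfap2a by 1.87 ± 0.24, Gata2 by 1.5 ± 0.19, Ascl2 by 1.5 ± 0.17, Ets2 by 1.30 ± 0.15 and Eomes, a factor of trophoblast stem cells, by 1.20 ± 0.14. The TEAD cofactor Vgll1 (at least 13-fold) and the homeobox gene Dlx3 (at least 11.1-fold) were seen on both shIno80 arrays and on neither shNT array, so their change is a lower bound. Tfap2c, a trophoblast factor that ESCs also express, fell (-1.44 ± 0.27), as did Sox15 (-1.66 ± 0.18). Elf5, which is turned on late in trophoblast stem cells, was not seen in both replicates of any group.

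Products of the placenta were measured less completely. Of 56 listed, 51 were on the array and 29 were measured, 13 rose and 5 fell. The median was 0.41, or 0.31 with the 5 genes seen in only 1 group at their bound. It depended on each array, at 0.64 and 0.68 without shIno80 replicate 1 or 2 and 0.67 and 0.22 without shNT replicate 1 or 2, and was 1.16 over the genes seen on all 4 arrays. Cited1, a transcriptional cofactor of the spongiotrophoblast, was at 2.84 and 2.99 in shIno80, against -1.54 and -1.81 in shNT (4.60 ± 0.13). Tinagl1 (4.48 ± 0.24), Bmp8b (4.27 ± 0.14) and the VEGF receptor Flt1 (4.01 ± 0.25) rose too. The pregnancy-specific glycoprotein Psg18 (at least 2.16-fold lower, seen in shNT only), the X-linked homeobox gene Rhox5 (-2.22 ± 0.38), Duox2 (-1.84 ± 0.41) and the LIF receptor gene Lifr (-1.22 ± 0.09) were lower. For Psg18 the shNT arrays were at -4.78 and -4.79 at day 6, while at day 4 the means were -7.91 in shNT and -7.83 in shIno80. The other 11 did not pass.

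Epithelial genes rose. All 5 keratins of simple epithelia were higher, as were 21.0% of all genes, and their median was 4.71. Krt7 was at 4.91 and 5.04 in shIno80, against -0.39 and -0.40 in shNT (5.37 ± 0.26, adjusted p = 2.86e-06). The obligate filament partners Krt8 (7.55 and 7.57 in shIno80, against 3.01 and 2.55 in shNT) and Krt18 (8.23 and 8.08 in shIno80, against 3.61 and 3.27 in shNT) rose by 4.77 ± 0.20 and 4.71 ± 0.20. Krt19 rose by 3.67 ± 0.18, and Krt20, seen on 1 of 2 shNT arrays, by 4.43 ± 0.39. Keratins of stratified epithelia were split, with 3 higher, 2 lower and 3 not passing of 8: Krt15 rose by 3.20 ± 0.26 and Krt17 fell (log2 fold change -2.75 ± 0.16).

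Genes of cell junctions rose as well. Of 21 measured cadherins and tight junction genes, 15 rose and 2 fell, and of 7 desmosomal genes 6 rose. Desmoplakin, which anchors keratin filaments to the desmosome (Dsp), was at 4.35 and 4.20 in shIno80, against 0.00 and -0.21 in shNT (4.38 ± 0.17). E-cadherin (Cdh1), already high in ESCs, was at 5.25 and 5.25 in shIno80, against 4.10 and 4.15 in shNT (1.12 ± 0.14). The claudins Cldn7 (2.53 ± 0.22) and Cldn3 (2.45 ± 0.25) and the tricellular junction protein Marveld2 (2.46 ± 0.17) rose, while Cldn5, the claudin of endothelium, fell (-1.34 ± 0.18), as did Tjp3 (-0.74 ± 0.14). Cdh3, Cdh2, Cdh11 and Epcam did not pass, with values from -0.09 to 0.42. Of 21 other epithelial regulators and surface proteins, 14 rose, among them the membrane protease Tmprss2 (5.20 ± 0.38) and the calcium-binding S100a6 (4.11 ± 0.47), and 1 fell, Anxa8 (-0.94 ± 0.17).

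The matrix genes rose as well, though with more exceptions. Of 67 measured genes of the mesenchyme and matrix, 40 rose, 10 fell and 17 did not pass. Col1a1, a chain of type I collagen, was at 0.72 and 0.56 in shIno80, against -3.09 and -3.39 in shNT (3.88 ± 0.13, adjusted p = 9.85e-07). The chains of the basement membrane collagen, Col4a1 (2.26 and 2.47 in shIno80, against -1.09 and -0.80 in shNT) and Col4a2 (2.46 and 2.71 in shIno80, against -1.18 and -0.95 in shNT), rose by 3.31 ± 0.46 and 3.65 ± 0.44. Thrombospondin (Thbs1, 4.58 ± 0.21), the metalloprotease inhibitor Timp2 (4.30 ± 0.24) and the calcium-binding S100a4 (3.73 ± 0.25) rose, and the lysyl oxidase Lox, which cross-links collagen, was seen in shIno80 only (at least 3.53-fold). Vim, the mesenchymal filament that ESCs also express, was at 2.78 and 2.72 in shIno80, against 3.77 and 3.87 in shNT (-1.07 ± 0.12), and the repressor Zeb1, seen on 1 of 2 shIno80 arrays, was lower (-3.40 ± 0.21). Laminin Lama1 (-1.35 ± 0.17) and nidogen Nid2 (-1.22 ± 0.09) fell, and fibronectin (Fn1) did not pass (-0.41 ± 0.28, adjusted p = 0.26).

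A list of 12 fibroblast markers was read beside these matrix genes. Of them 10 were measured, and 4 rose, 2 fell and 4 did not pass. Their summed linear level, in units of the 75th percentile, was 3.35 and 3.15 in shIno80, against 1.55 and 1.35 in shNT. The rise came from the collagen genes Col1a1, Col1a2 (1.92 ± 0.14) and Col3a1 (1.12 ± 0.36, lost without shIno80 replicate 1, 1.11, adjusted p = 0.1, replicate 2, 1.14, adjusted p = 0.0938, or shNT replicate 1, 0.74, adjusted p = 0.175) and from decorin (Dcn, 3.82 ± 0.34, seen on 1 of 2 shNT arrays). Thy1, a surface marker of fibroblasts that ESCs carry too, fell (-0.68 ± 0.16), as did Pdgfra (-0.53 ± 0.16). The call of Pdgfra was lost without shIno80 replicate 1 (-0.54, adjusted p = 0.0755), shIno80 replicate 2 (-0.51, adjusted p = 0.0883) or shNT replicate 2 (-0.32, adjusted p = 0.148). Postn and Fap were not seen in both arrays of any group, Prrx1 was seen on 1 of the 4 arrays, Lum and Twist2 were seen in shIno80 only and did not pass, and Pdgfrb did not differ past the threshold (0.20 ± 0.16). The part of fibroblast-like cells in the rise of the matrix genes was not tested.

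Genes of the contractile cytoskeleton rose with few exceptions. Of 46 genes of actin, myosin and their regulators, 43 rose, none fell, and Mylk (-0.28), Des (-0.24) and Srf (0.23) did not pass. The median was 1.74, against -0.14 over all genes. Cryab, a small heat shock protein that guards desmin and actin filaments, was at 4.65 and 4.69 in shIno80, against -1.69 and -1.64 in shNT (6.34 ± 0.16, adjusted p = 4.89e-07), an 80.8-fold difference. Acta1, the actin of skeletal muscle, was at 2.12 and 2.51 in shIno80, against -2.65 and -2.84 in shNT (5.07 ± 0.35), and Gsn, which severs actin filaments, at 6.07 and 6.05 in shIno80, against 0.98 and 0.81 in shNT (5.17 ± 0.19). Tagln (3.27 ± 0.24), Cnn1 (2.59 ± 0.24), Actc1 (2.34 ± 0.14), Myl9 (2.22 ± 0.41), Cnn2 (1.68 ± 0.10) and Actg2 (1.11 ± 0.12) rose, and so did Acta2, the smooth muscle actin, by the smaller 0.70 ± 0.12. Limch1, a regulator of non-muscle myosin seen on 1 of 2 shNT arrays, rose by 5.61 ± 0.19, and Synpo2l, an actin-bundling protein of muscle, by 4.64 ± 0.33. The muscle markers read beside them did not rise together, with 6 higher and 8 lower of 22 measured and a median of -0.33. All genes had 21.0% higher and 29.5% lower. The summed levels of the muscle markers were 8.36 and 9.81 in shIno80, against 6.12 and 6.03 in shNT. The largest log2 fold change in the muscle list, 5.07, is that of Acta1. Its level makes up much of the shIno80 sums, so they are no separate readout. Desmin was among the genes that did not pass, and the part of muscle-like cells was not tested.

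Many contractile genes are classical targets of serum response factor, which binds the CArG box. In RefSeq promoters of build GRCm38.p6, taken from 250 bases before to 50 after the start of each gene, this motif lay in 12.7% of the 55 promoters of contractile genes, in 1.38% of the promoters of all genes measured and in 1.63% of all promoters. The windows below show it, in capitals, in 4 promoters of genes that rose, each as 80 bases around the box on the gene's own strand. The pattern of the box matches on both strands alike, though a single copy need not be its own reverse complement. The promoter of Srf itself holds the motif too, and Srf did not pass.
Acta1 (chr8:123894804-123894883, minus strand): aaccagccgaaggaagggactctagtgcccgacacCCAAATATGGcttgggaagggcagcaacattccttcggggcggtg
Actc1 (chr2:114052878-114052957, minus strand): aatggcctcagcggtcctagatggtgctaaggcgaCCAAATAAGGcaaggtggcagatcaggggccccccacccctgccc
Myl9 (chr2:156775268-156775347, plus strand): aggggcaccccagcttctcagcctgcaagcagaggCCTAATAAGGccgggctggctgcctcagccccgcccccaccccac
Cnn2 (chr10:79988509-79988588, plus strand): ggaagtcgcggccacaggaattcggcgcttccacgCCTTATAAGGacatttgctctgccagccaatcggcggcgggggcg

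YAP and TAZ with the TEAD factors read cell shape and density, and most genes of the pathway list rose. Of 22 genes of the pathway and its targets, all measured, 14 rose, 3 fell and 5 did not pass, with a median of 1.86. The matricellular targets Ccn1 (4.34 and 4.14 in shIno80, against 0.70 and 0.36 in shNT) and Ccn2 (5.66 and 5.61 in shIno80, against 3.21 and 3.04 in shNT) rose by 3.71 ± 0.15 and 2.51 ± 0.27. The feedback kinase Lats2 rose by 3.39 ± 0.21, the YAP-binding Amotl2 by 2.69 ± 0.16, and the TEAD cofactor Vgll3 by 4.57 ± 0.24. Ankrd1, a cofactor of muscle and another common target, was seen in shIno80 only (at least 10.5-fold). The 3 genes that fell were Nf2 (-1.24 ± 0.13) and Stk4 (-1.21 ± 0.19), which restrain YAP, and Tead2 (-1.10 ± 0.20), whereas Tead1 rose (0.75 ± 0.12) and Yap1 did not pass (-0.09 ± 0.15).

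The TEAD motif GGAATG, searched on both strands, lay in 56.5% of the 23 promoters of this list, in 12.7% of those of all genes measured and in 14.7% of all promoters, and in 32.7% of those of the contractile list. It is shown in capitals, as GGAATG or its reverse complement, in 80 bases around the motif for 4 genes that rose. The promoters of Yap1 and Ajuba (-0.21 ± 0.10) hold it as well, and neither gene passed.
Vgll3 (chr16:65815089-65815168, plus strand): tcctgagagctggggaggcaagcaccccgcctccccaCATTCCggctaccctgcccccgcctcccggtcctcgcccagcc
Ccn1 (chr3:145650046-145650125, minus strand): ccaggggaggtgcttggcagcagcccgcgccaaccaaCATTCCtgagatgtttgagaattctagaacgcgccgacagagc
Amotl2 (chr9:102717702-102717781, plus strand): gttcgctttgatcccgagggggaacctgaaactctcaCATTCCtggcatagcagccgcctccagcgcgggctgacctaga
Ankrd1 (chr19:36119925-36120004, minus strand): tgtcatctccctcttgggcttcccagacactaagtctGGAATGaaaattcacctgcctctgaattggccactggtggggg

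**Figure D3:**
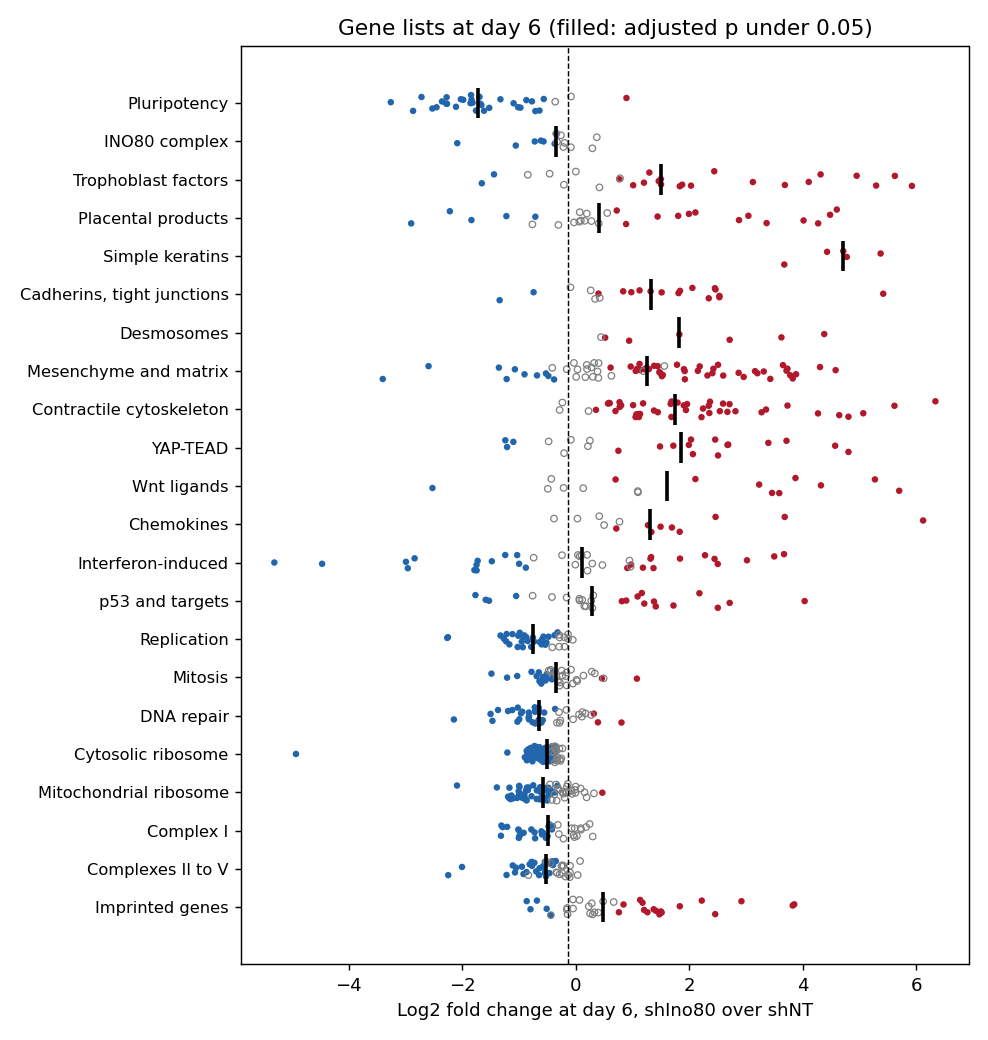
Log2 fold change (shIno80 over shNT, day 6) of every measured member of 22 gene lists, 1 point per gene, filled where the gene passed the threshold, with the list's median as a bar and the median of all genes (-0.14) as a dashed line. Simple keratins, contractile genes and trophoblast factors lie to the right and the pluripotency genes to the left, while the medians of replication (-0.75), repair (-0.65) and cytosolic ribosomal protein genes (-0.51) lie closer to the line.

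Among secreted signals, Wnt ligands rose broadly. Of 19 listed, 16 were measured, 9 rose and 1, Wnt5a, fell (at least 1.93-fold, seen in shNT only). Wnt6 was at 3.23 and 3.16 in shIno80, against -1.95 and -2.21 in shNT (5.27 ± 0.28, adjusted p = 4.70e-06), and Wnt10a at 2.28 and 2.12 in shIno80, against -3.41 and -3.59 in shNT (5.70 ± 0.22, adjusted p = 1.50e-06). Wnt9a (3.87 ± 0.15) and Wnt4 (3.58 ± 0.25) rose. Receptors, antagonists and targets of Wnt were split, with 12 higher and 7 lower of 36, beside 21.0% and 29.5% of all genes. The ligand carrier Wls (3.42 ± 0.15) and the receptor Fzd1 (3.0 ± 0.29) rose, whereas the antagonist Sfrp1 (-2.81 ± 0.25) and Porcn, which loads the lipid on Wnt proteins (-2.03 ± 0.20), fell.

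In the TGF-beta family the ligands went both ways, with 8 of 18 higher and 6 lower, beside 21.0% and 29.5% of all genes. Bmp1, the protease that processes procollagen (4.00 ± 0.22), Tgfb3 (3.03 ± 0.22) and Tgfb2, seen on 1 of 2 shNT arrays (4.35 ± 0.52), rose, while the ligands of the ESC state fell, with Inhbb at -3.01, Gdf3 at -1.68 and Nodal at -1.26. The receptor Tgfbr2 was at 1.96 and 1.90 in shIno80, against -2.55 and -3.08 in shNT (4.75 ± 0.18, adjusted p = 1.35e-06), and the antagonist Noggin (Nog) at -0.99 and -0.64 in shIno80, against -4.51 and -4.75 in shNT (3.81 ± 0.23). Id2, a target of BMP signals, rose by 3.12 ± 0.28.

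FGF and EGF genes were split as well, with 14 ligands and receptors higher and 13 lower of 35, beside 21.0% and 29.5% of all genes. Igf2 (3.85 ± 0.32) and Egfr (3.71 ± 0.27) rose, and Fgf15 (-3.09 ± 0.21), Kit (-2.70 ± 0.34) and Fgf17 (-2.69 ± 0.19) fell. Of the targets and feedback genes of ERK, Atf3 (3.40 ± 0.23), Dusp14 (3.24 ± 0.14) and Jun (2.76 ± 0.26) rose, while the targets that are typical of FGF signals in ESCs, Etv5 (-1.51 ± 0.23) and Spry4 (-1.5 ± 0.31), fell. Of 28 measured receptor and signalling genes of the LIF pathway, on which ESC self-renewal depends, and of other cytokines, 13 rose and 7 fell, with a median of 0.36, or 0.21 without shNT replicate 2. Lifr (-1.22 ± 0.09), Socs3 (-1.25 ± 0.10) and Socs2 (-2.21 ± 0.18) were among those that fell and the growth factor gene Csf1 (6.21 ± 0.16) among those that rose.

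Of 14 measured chemokines 9 rose and none fell. Ppbp, a CXC chemokine of platelets, was seen in shIno80 only (at least 22.2-fold), Cxcl16 rose by 3.68 ± 0.15 and Cxcl10 by 1.83 ± 0.19. Csf1, the growth factor of macrophages, which the placenta and uterus also make, was at 2.37 and 2.43 in shIno80, against -3.58 and -4.04 in shNT (6.21 ± 0.16, adjusted p = 4.89e-07), a 73.8-fold difference and one of the largest of all. In the Notch pathway 5 genes rose and 7 fell of 18, beside 21.0% and 29.5% of all genes, with Notch3 at 1.67 and Hes5 at -1.97. The Notch falls numbered 4 without shIno80 replicate 1 or shNT replicate 2, and the rises 3 without shIno80 replicate 2.

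Interferon-induced genes moved in both directions. Of 39 measured, 13 rose, 14 fell and 12 did not pass, beside 21.0% higher and 29.5% lower over all genes. The guanylate-binding proteins Gbp2 (2.16 and 2.21 in shIno80, against -1.21 and -1.76 in shNT) and Gbp3 (-0.73 and -0.99 in shIno80, against -3.72 and -4.03 in shNT) rose by 3.67 ± 0.31 and 3.02 ± 0.35. Of the genes that load peptides on MHC class I, B2m was at 2.05 and 1.84 in shIno80, against 0.16 and 0.05 in shNT (1.84 ± 0.14) and Tap1 at -0.27 and -0.19 in shIno80, against -2.66 and -2.69 in shNT (2.45 ± 0.09). The deconjugase Usp18 was seen in shIno80 only (at least 4.47-fold).

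By contrast, 4 genes of the 2-5A synthetase family, sensors of double-stranded RNA, were seen on both shNT arrays and on neither shIno80 array. Oas1a had levels of -6.02 and -6.00 in shIno80, against -0.69 and -0.71 in shNT (at least 36.7-fold lower, adjusted p = 2.59e-06). Oas2 (at least 7.95-fold lower), Oas1d (at least 7.57-fold lower) and Oas3 (at least 4.54-fold lower) followed, and Ifitm1, a membrane protein that bars viral entry and marks early germ cells, fell (log2 fold change -2.84 ± 0.21). Among the sensors and signalling genes, Irf2 was seen in shIno80 only (at least 9.5-fold) and Irf9 fell (-1.20 ± 0.12). The Oas genes are close relatives, and the signal of a probe shared by several of them cannot be told apart.

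An interferon response motif of the ISRE type, 2 GAAA repeats with any 2 bases between them, searched on both strands, lay in 48.5% of the 33 promoters of the interferon-induced genes, against 2.91% of the promoters of all genes measured and 3.44% of all promoters. It occurred on both sides of the response, as shown in capitals, in 80 bases around the motif, for 2 genes that rose, Gbp2 and B2m, and 2 that fell, Oas1a and Oas3. The Oas1a window holds 2 overlapping copies. Isg15, Ifit1 and Rsad2 hold it too and did not pass. Of these Ifit1 and Rsad2 were seen on none of the 4 arrays, and Isg15 on both shIno80 arrays and 1 shNT array.
Gbp2 (chr3:142620569-142620648, plus strand): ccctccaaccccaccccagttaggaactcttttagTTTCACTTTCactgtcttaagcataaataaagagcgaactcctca
B2m (chr2:122147513-122147592, plus strand): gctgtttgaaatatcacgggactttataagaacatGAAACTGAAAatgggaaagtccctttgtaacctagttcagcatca
Oas1a (chr5:120907526-120907605, minus strand): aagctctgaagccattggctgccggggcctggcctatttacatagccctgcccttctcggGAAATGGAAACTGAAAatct
Oas3 (chr5:120777690-120777769, minus strand): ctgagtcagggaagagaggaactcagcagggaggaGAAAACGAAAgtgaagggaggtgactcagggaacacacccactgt

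**Figure D4:**
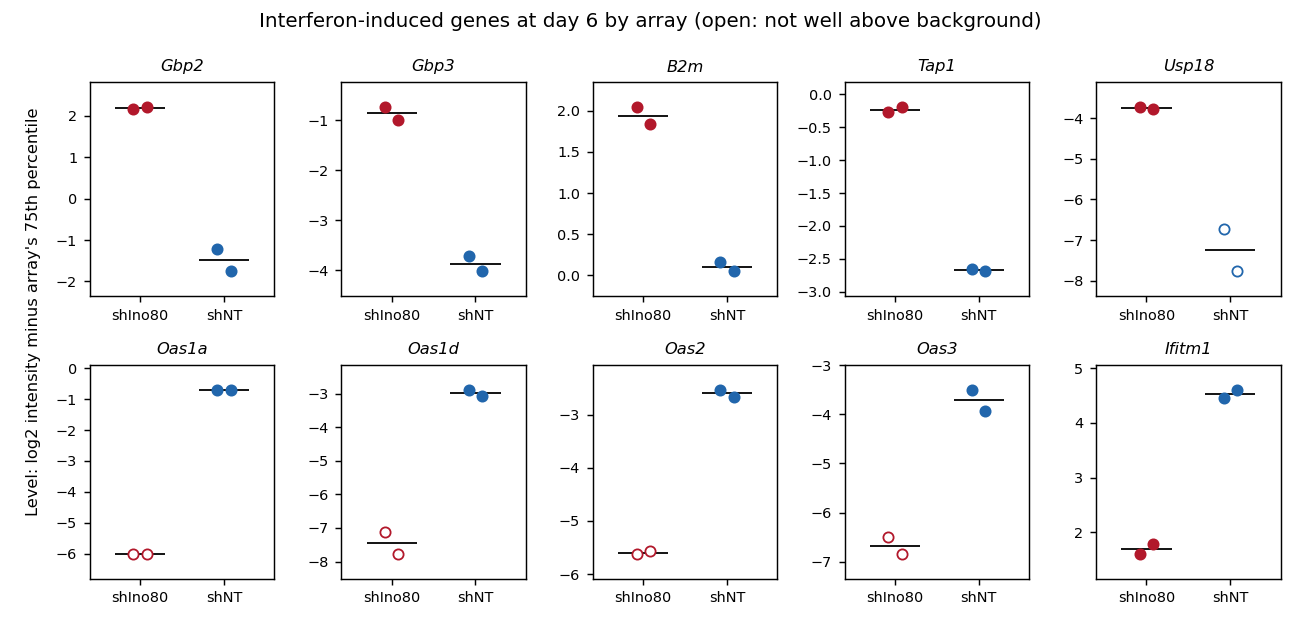
Levels of 10 interferon-induced genes on the 4 arrays of day 6, with shIno80 left and shNT right, 1 point per array, a line at the mean of 2, an axis for each panel and open points where the spot was not well above background. Gbp2, Gbp3, B2m, Tap1 and Usp18 lie higher in shIno80, and Oas1a, Oas1d, Oas2, Oas3 and Ifitm1 lie lower, with the 4 Oas genes below detection in shIno80.

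Most genes that copy and mend DNA fell. Of 41 replication genes 32 fell and none rose (median -0.75), and of 45 repair genes 31 fell and 3 rose (median -0.65). The largest falls were in Mcm10, a loading factor of the replication fork, at 2.49 and 2.56 in shIno80, against 4.72 and 4.86 in shNT (-2.26 ± 0.13, adjusted p = 6.19e-06), and Pola1, the primase-bound polymerase subunit, at 0.07 and -0.13 in shIno80, against 2.18 and 2.26 in shNT (-2.25 ± 0.16, adjusted p = 1.55e-05). The helicase subunit Mcm3 fell too (-0.87 ± 0.16). Parp2 (-2.15 ± 0.10) and Prkdc, the kinase of end joining (-1.5 ± 0.10), led the falls in repair. Mitotic genes moved less, with 15 lower and 2 higher of 37 (median -0.34), the rises of mitotic and of repair genes numbering 1 each without any 1 of the 4 arrays, and Foxm1, a driver of mitotic genes, was higher (1.08 ± 0.11). The G1 regulators fell in 12 of 25, with Cdk2 at -1.19 and Ccne1 at -1.16, while the inhibitors Cdkn2a (2.48 ± 0.13) and Cdkn2b (2.4 ± 0.14) rose. Ccnd1 (-0.34 ± 0.17, adjusted p = 0.124) and Myc (-0.25 ± 0.23, adjusted p = 0.404) did not pass, and Mycn, the Myc gene of ESCs, fell (-1.21 ± 0.15).

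Of 27 genes of p53 and its targets 12 rose and 4 fell, beside 21.0% and 29.5% of all genes. Gadd45g, a stress-inducible gene that is also a marker of differentiation, was at 5.32 and 5.26 in shIno80, against 1.25 and 1.27 in shNT (4.03 ± 0.36, adjusted p = 5.02e-05). Plk2 (2.18 ± 0.24), Gadd45b (2.50 ± 0.17), Mdm2 (1.09 ± 0.16) and Cdkn1a, which encodes p21 (0.81 ± 0.17), rose, while Bax (-1.05 ± 0.13), Tigar (-1.77 ± 0.10) and Trp73 (-1.59 ± 0.14) fell. Trp53 itself did not pass (-0.76 ± 0.28, adjusted p = 0.0537).

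Genes of protein synthesis fell widely and by little. Of 80 genes of cytosolic ribosomal proteins, 64 fell and none rose, with a median of -0.51, of 78 genes of mitochondrial ribosomal proteins 52 fell and 1 rose (median -0.58), and of 34 genes of ribosome biogenesis 22 fell and none rose. Rpl3 fell by more than the list's median, at 7.09 and 7.11 in shIno80, against 7.97 and 8.02 in shNT (-0.90 ± 0.09, adjusted p = 1.16e-04). The outlier was Rpl39l, a ribosomal protein gene used in the testis and in ESCs, at -0.98 and -1.44 in shIno80, against 3.62 and 3.82 in shNT (-4.93 ± 0.15, adjusted p = 8.99e-07). The count for cytosolic ribosomal proteins depended on both the arrays and the scaling. It was 35 without shIno80 replicate 2, 42 without shNT replicate 1 and 41 without shNT replicate 2, and 30 with a median of -0.15 under quantile normalization, where all genes had a median of -0.09.

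Energy metabolism showed a similar picture. Of 36 genes of respiratory complex I 22 fell and none rose, and of 46 genes of complexes II to V 29 fell and none rose, a count that was 19 without shIno80 replicate 2. Ndufa2, a subunit of complex I, was at 2.80 and 2.74 in shIno80, against 4.03 and 4.14 in shNT (-1.32 ± 0.14), and Sdhc, a membrane anchor of complex II, changed by -1.22 ± 0.11. In glycolysis and the response to low oxygen, 18 genes fell and 6 rose of 34, with Pfkp (-2.17 ± 0.17), Aldoc (-2.21 ± 0.22) and the oxygen sensor Egln3 (-2.31 ± 0.28) lower and Pfkfb3, which drives glycolytic flux, higher (2.33 ± 0.17). Rises in this list numbered 3 without shIno80 replicate 1, shIno80 replicate 2 or shNT replicate 2. Genes of defence against oxidants fell in 15 of 29, with Sod2 at -1.71 and Gpx4 at -1.15.

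Among chromatin genes, the 3 TET dioxygenases, which oxidise methylated cytosine, differed in direction. Tet1, the main one of ESCs, was at -1.29 and -1.02 in shIno80, against 0.39 and 0.61 in shNT (-1.66 ± 0.15), and Tet2 at -4.18 and -3.59 in shIno80, against -1.12 and -0.77 in shNT (-2.94 ± 0.26). Tet3, the form of differentiated cells and the oocyte, was at -1.44 and -1.47 in shIno80, against -3.28 and -3.75 in shNT (2.06 ± 0.17). Dnmt3a fell (-1.21 ± 0.20), while Dnmt3b (-0.21 ± 0.19, adjusted p = 0.399) and Dnmt1 (-0.16 ± 0.12) did not pass. Of 28 polycomb genes 15 fell and 7 rose, beside 29.5% and 21.0% of all genes. The PRC2 cofactors Mtf2 (-1.5 ± 0.14) and Jarid2 (-1.17 ± 0.13) were lower and the PRC1 chromodomain gene Cbx8 (1.52 ± 0.21) was higher. In the SWI/SNF family, Smarca2, the ATPase that differentiated cells use, was seen in shIno80 only (at least 7.47-fold), and Smarcd3 fell (-1.65 ± 0.20).

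Of 37 imprinted genes 17 rose and 5 fell, beside 21.0% and 29.5% of all genes. Igf2, the fetal growth factor, was at 3.13 and 3.27 in shIno80, against -0.72 and -0.57 in shNT (3.85 ± 0.32, adjusted p = 3.15e-05), and H19, its neighbour of opposite imprint, at -3.82 and -2.96 in shIno80, against -4.54 and -4.76 in shNT (1.26 ± 0.25). Peg3 (1.83 ± 0.20) and Peg10 (2.22 ± 0.25), both paternally expressed genes of the placenta, rose. Cdkn1c, a growth inhibitor, fell (log2 fold change -0.68 ± 0.24), a call lost without any 1 of the 4 arrays, with values between -0.71 and -0.66. Without shIno80 replicate 2 the falls in this list numbered 3.

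Markers of endoderm, of mesoderm and streak, and of neural cells did not move in 1 direction within their lists. Endoderm genes rose in 7 and fell in 4 of 22, mesoderm and streak genes in 8 and 9 of 23, and neural genes in 12 and 17 of 38. Over all genes, 21.0% rose and 29.5% fell. The defining endoderm factors Gata4 (-0.12 ± 0.20, seen on 3 of the 4 arrays), Gata6 (-0.13 ± 0.30) and Sox17 (-0.06 ± 0.18) did not pass. The summed level of the endoderm list was 21.7 and 19.7 in shIno80, against 6.24 and 5.98 in shNT, though its median log2 fold change was 0.01. Most of the shIno80 sums came from its members Lrp2 and Amot. Lrp2, an endocytic receptor of visceral endoderm and trophectoderm, was at 3.75 and 3.52 in shIno80, against 0.58 and 0.30 in shNT (3.20 ± 0.27). Amot was at 1.95 and 1.92 in shIno80, against -0.40 and -0.65 in shNT (2.46 ± 0.18). T, the brachyury gene of the primitive streak, rose (1.77 ± 0.25, seen on 1 of 2 shNT arrays), and Fgf5, a marker of the primed epiblast, did not pass (-0.23 ± 0.28). Of 26 measured Hox genes 10 rose and none fell, with a median of 0.09, and 13 were seen on all 4 arrays. Hoxd8 (at least 5.41-fold) and Hoxd9 (at least 3.88-fold) were seen in shIno80 only. The eye and ear factor Eya4 was seen in shIno80 only (at least 43.8-fold), while the neural genes Stmn3 (-3.17 ± 0.13) and Pax6 (-2.06 ± 0.37) fell.

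Markers of blood and vessels were read for cells that a culture could hold besides ESCs. Of 18 measured haematopoietic markers 1 rose and 7 fell, beside 21.0% higher and 29.5% lower over all genes. Their summed levels were 4.27 and 4.55 in shIno80, against 7.0 and 7.12 in shNT. Spi1, Lyz2 and Adgre1, which define macrophages, were not seen on both arrays of any group. Of 13 endothelial markers 3 rose and 7 fell, with summed levels of 5.97 and 5.80 in shIno80, against 6.19 and 6.29 in shNT. Pecam1, which ESCs carry too, fell (-1.86 ± 0.32), and Cdh5 and Tie1, which define endothelium, were not seen on both arrays of any group. The stem cell markers that define J1 were seen on all 4 arrays, with summed levels of 183 and 203 in shIno80, against 519 and 584 in shNT, and the trophoblast regulators summed to 76.2 and 72.0, against 26.6 and 26.8.

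Germ cell genes were lower in 15 and higher in 11 of 40, beside 29.5% lower and 21.0% higher over all genes. Pdcl2, a testis-specific chaperone, was seen in shNT only (at least 25.8-fold lower), Stra8, which starts meiosis, was at -2.66 and -2.80 in shIno80, against 0.26 and 0.47 in shNT (-3.1 ± 0.18), and Nanos3, needed for germ cell survival, fell (-2.56 ± 0.20). Ddx4 (1.73 ± 0.25), Tdrd1 (2.10 ± 0.23) and the X-linked homeobox gene Rhox6 (2.88 ± 0.39) rose. Without shNT replicate 1 the rises numbered 7. Of 29 listed genes of the 2-cell state, 13 were measured, 7 rose and none fell. Zfp352 was at -1.28 and -1.71 in shIno80, against -4.64 and -4.95 in shNT (3.30 ± 0.33) and Sp110 at -0.12 and -0.29 in shIno80, against -3.36 and -3.31 in shNT (3.13 ± 0.20). The rises numbered 3 without shIno80 replicate 1 and 4 without shNT replicate 2, and several of these genes have near-identical copies that the probes cannot separate.

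Among the other genes, Srgn, a proteoglycan of secretory granules, was seen in shNT only (at least 21.1-fold lower). Mal, a protein of apical transport in epithelia, was at -0.43 and -0.38 in shIno80, against -5.83 and -6.68 in shNT and seen in shIno80 only (at least 44.0-fold). Ddn was at 0.94 and 0.56 in shIno80, against -4.84 and -5.27 in shNT (5.81 ± 0.19). Among the falls with signal in both groups were Nsg2, a neuronal endosomal protein (-3.83 ± 0.40), and the amino acid transporter Slc38a5 at -4.77 and -4.58 in shIno80, against -0.85 and -0.86 in shNT (-3.82 ± 0.20). Some large values rest on arrays that differ widely. Aldh1l2 had -6.85 and -6.35 in shIno80, against -1.16 and -3.92 in shNT, was seen in shNT only (at least 10.3-fold lower), and had a fitted log2 fold change of -2.68, adjusted p = 0.00208 without shNT replicate 1 and -5.44, adjusted p = 1.28e-04 without shNT replicate 2.

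Detection crossed the background in both directions. At day 6, 362 genes were seen on both shIno80 arrays and neither shNT array, and 346 the reverse. These numbers were 359 and 326 at day 4 and 149 and 120 at day 2. In addition, 84 genes were seen on all arrays of the experiment other than the 2 of shIno80 at day 6, against 3 to 19 for the other groups, and 33 were seen in shIno80 at day 6 and on no other array, against 17 to 48 for the other groups.

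Most genes called at day 6 carried the same call at day 4. Of the genes higher at day 6, 3068 were also higher at day 4, and of those lower 3596 were also lower, while 22 and 49 carried opposite calls at day 4. In all, 2788 genes were called at day 6 and on neither earlier day. At day 4 20.9% of genes were higher and 21.3% lower, and at day 2 6.29% and 6.21%. Whether the response itself changed was tested as a difference of differences, and 728 genes passed for day 6 against day 4 (3.80%), 297 with a positive and 431 with a negative difference. Against day 2, 5195 passed (27.1%).

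Of the 297 positive differences, 258 belonged to genes higher at day 6, and of the 431 negative ones 300 belonged to genes lower at day 6. Wnt6 had a log2 fold change of 5.27 at day 6 and 1.36 at day 4 (difference 3.91 ± 0.40, adjusted p = 0.00318). Esx1 likewise had a larger difference at day 6, with 5.92 at day 6 and 2.89 at day 4 (difference 3.04 ± 0.16), as did Cryab with 6.34 and 3.64 (difference 2.69 ± 0.23). Pmp22, a tetraspan protein of myelin and epithelia, had 3.98 and 0.63 (difference 3.35 ± 0.28). Klf4 fell less at day 6 than at day 4, with -1.98 and -3.14 (difference 1.15 ± 0.23), and Gata6 had -0.13 at day 6, not past the threshold, and -2.53 at day 4 (difference 2.41 ± 0.43). In the germ cell list 8 of 40 genes had a negative difference and none a positive one, beside 2.25% of all genes with a negative one.

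Opposite calls on the 2 days with a tested difference were found for 67 genes. The Wnt antagonist Dkk1, a target of Wnt signals itself, was at -2.53 and -1.67 in shIno80, against -4.54 and -3.59 in shNT at day 6, a rise of 1.97 ± 0.36, whereas its log2 fold change at day 4 was -2.13 (difference 4.10 ± 0.51, adjusted p = 0.00729). Kitl, the ligand of Kit, had 0.98 at day 6 and -1.18 at day 4 (difference 2.16 ± 0.23), and the membrane protein Emp1 1.48 and -0.78 (difference 2.26 ± 0.19). Kitl and Emp1 were chosen for the text after their values had been seen.

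**Figure D5:**
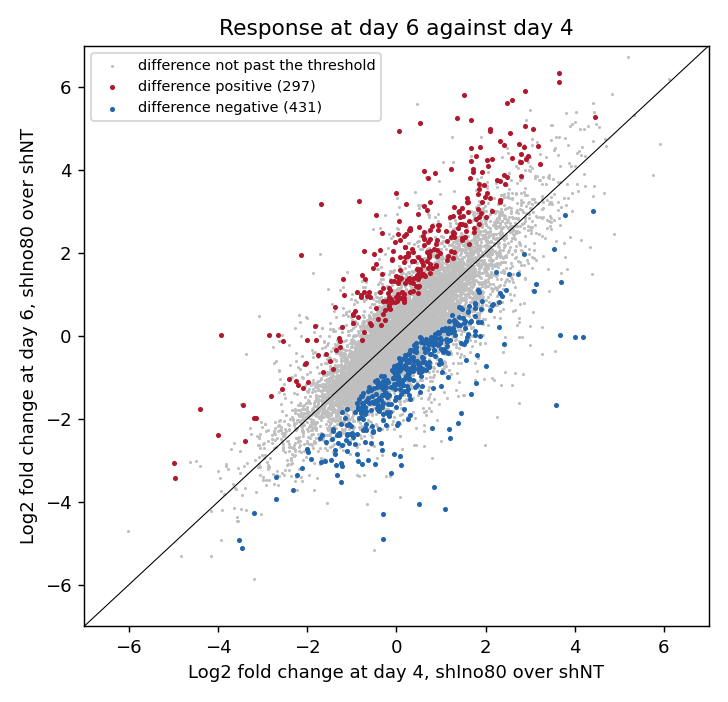
Log2 fold change (shIno80 over shNT) of each measured gene at day 6 (vertical axis) against day 4 (horizontal axis), with the 297 genes whose difference between days was positive and the 431 with a negative one in colour. Most genes lie along the diagonal; 258 of the 297 positive differences belong to genes higher at day 6 and 300 of the 431 negative ones to genes lower at day 6.

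The calls were spread over the genome. By the positions of the array design, and leaving out chromosome Y with 4 genes, between 17.64% (chromosome 7) and 25.39% (chromosome 1) of a chromosome's genes were higher, and between 24.78% (chromosome 12) and 35.43% (chromosome 17) were lower. In promoters of genes higher by 2-fold or more the median GC content was 61.3%, and 57.0% in those of genes lower by as much, against 59.7% over all genes measured. The YY1 motif, searched on both strands, lay in 0.354% of the promoters of genes higher by 2-fold or more and 2.62% of those of genes lower by as much, against 1.62% over all genes measured and 0.852% of all promoters. These shares rest on 7 and 45 promoters with the motif in the higher and lower genes. Other motifs were searched in the same sets and are not given here. The relation of the YY1 shares to GC content was not tested.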

How the data were processed

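RNA from 12 cultures (2 per hairpin on days 2, 4 and 6) was hybridised to arrays, each day on its own slide. Per the file headers, Agilent Feature Extraction 9.5.3.1 gave the deposited intensity values, processed signals that are background-subtracted and detrended within an array; the Cy5 dye of the labels does not match the green channel of the files. The authors' deposited log2 value table equals the mean spot intensity times 1 factor per array, within 1e-06. Matching its columns to the scanner files placed 6 of 12 files in another group than recorded, and the table's groups were used, a choice made with the correlations and the Ino80 probes known.

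Control and outlier spots were left out (125 probes lost), spots of a probe averaged, and log2 intensities set against each array's 75th percentile. Of 41174 probes, 28652 were well above background on both arrays of a group, and the brightest probe stood for a gene, giving 19181 genes, 15016 with a symbol. Names came from accessions (22944 probes), current symbols (6664), older symbols (3108) or the file (8458). limma 3.58.1 in R 4.3.3 fitted 6 group means to 12 arrays (lmFit, eBayes), with Benjamini-Hochberg adjustment over all genes at 0.05, and was tested on simulated data. A gene well above background in 1 group only is given as a bound: its mean in that group over the other group's lowest signal well above background on each array, or its own if higher. Log2 fold changes are shIno80 over shNT.

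The members and gene lists were chosen with earlier results of these data known. Genes named are the main factors, the 20 largest rises and falls, up to 4 of each direction in a list's role, all members of roles of 12 or fewer, and the 10 largest differences between days, less some that rest on 1 array and some that are not reported here; a few typical members were added after their values were seen. Alternatives were another scaling, background, filter, probe rule or value source, the 4 arrays alone, each array left out, a replicate block and a minimum change. Promoters and names came from RefSeq (GRCm38.p6), and array positions are mm7.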

Additional observations from a re-analysis of the deposited data

Results flagged for a closer look

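The response to the knockdown differed between day 6 and day 4 for 728 genes and between day 6 and day 2 for 5195 genes, by the limma test of the difference itself with Benjamini-Hochberg adjustment. Each day is 1 slide and 1 scan, so a change over time cannot be told apart from a change between slides. For the genes below the value is the log2 fold change at day 6 minus that at day 4, and each passed that test. Among the trophoblast and placental genes it was 3.04 for Esx1, 0.85 for Hand1, 2.18 for Cited1 and 1.36 for Bmp8b. Among the keratins and matrix genes it was 2.98 for Krt15, 1.25 for Krt19, 1.47 for Col1a1, 1.43 for Col1a2 and 1.71 for Timp2. Among contractile genes and the TEAD cofactor it was 2.69 for Cryab, 1.72 for Actc1 and 1.70 for Vgll3. Among signalling genes it was 3.91 for Wnt6, 3.1 for Wnt10a, 1.59 for Wls, 3.1 for Nog and 2.80 for Gadd45g. Among the others that were higher at day 6 it was 4.29 for Ddn, 3.35 for Pmp22 and 2.24 for Amot.

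Negative differences were -1.40 for Rpl39l, -1.0 for Lifr, -0.60 for Nid2 and -2.62 for Stra8, all lower in shIno80 at day 6. The difference was also positive with 1.15 for Klf4, lower on both days, and 2.41 for Gata6, lower at day 4. Peg3 had 1.83 at day 6 and -0.10 at day 4 (difference 1.93). Opposite calls on the 2 days were found for Dkk1 (difference 4.10), Emp1 (2.26) and Kitl (2.16), higher in shIno80 at day 6 and lower at day 4. With the normexp background no gene passed this test.

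For 11 genes that passed the test a group lay below background on 1 or both days, at least on 1 array, so that the fitted difference is not a measured size. In shNT at day 6 this held for Dlx3 (2.85), Lox (1.53), Ppbp (2.48), Hoxd8 (1.40), Hoxd9 (1.81) and Smarca2 (1.57) on both arrays and for Limch1 (3.13) on 1. In shIno80 at day 6 it held for Pdcl2 (-1.64), Oas2 (-1.53) and Psg18 (-2.98) on both arrays, and for Dkk1, given above, in shIno80 at day 4.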

How the results depend on the processing

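Of the 9699 calls at day 6, between 7429 and 7750 were made in the same direction when any 1 of the 4 arrays was left out, with 3079 to 3720 genes higher and 4284 to 4763 lower. Median scaling kept 9041 of the calls, quantile normalization 9019, and the fit of the 4 arrays alone 8705. The normexp background called 1228 genes higher and 1572 lower, all of them calls of the main setting. Under it, replicates at day 6 differed by a median of 0.338 in shIno80 and 0.209 in shNT, against 0.152 and 0.13 in the main setting. The widest medians were in shNT, at 0.684 on day 2 and 0.598 on day 4, against 0.271 and 0.155. All days share 1 estimate of the spread. The deposited value table called 5603 higher and 3438 lower, and a test against a minimum change of 1.5-fold 1834 higher and 1829 lower. Under the scanner files' attachments the counts were 0 and 0, with 446 genes at an unadjusted p under 0.05 in limma. Of the listed genes, 472 were higher and 679 lower, and 213 and 256 with normexp.

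The difference between days 6 and 4 was less stable. Positive differences numbered 456 with quantile normalization, 834 with the value table and 126 without a filter on dim probes, against 297. Negative ones numbered 235 with median scaling, 250 with the value table and 151 without a filter, against 431. With normexp both were 0, at 559 genes with an unadjusted p under 0.05, and 433 genes differed between days 6 and 2, against 5195. The cause was not tested.

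Of 263 genes named here, 227 were called at day 6, and calls lost ran from 0 to 6 over the scaling, filter, probe and left-out array settings, with 68 lost under normexp and 20 with the minimum change. Pdgfra, lower in the main setting, was at 0.14 under normexp, with an adjusted p = 0.967. Same-numbered arrays deviated together at r = 0.2959, 0.1173 and 0.0832 on days 2, 4 and 6, so the numbers were not taken as pairs. With the replicate block 4615 genes were higher and 6480 lower, and no named call was lost. With 2 arrays a group the number of arrays limits the precision, and dim genes have only bounds.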

Other observations

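Of the Krüppel-like factors, Klf6 rose (1.75 ± 0.19) and Klf3 (-2.21 ± 0.15) and Klf8 (-1.37 ± 0.20) fell, in log2 fold change (shIno80 over shNT, SE, limma). The annexins Anxa1 (4.67 ± 0.26), Anxa3 (3.90 ± 0.40) and Anxa2 (3.80 ± 0.24), calcium-dependent membrane binders, rose, while Anxa8 fell. The protease inhibitors Serpinb8 (3.55 ± 0.24) and Serpinb5 (3.14 ± 0.29) rose, while the water and glycerol channel Aqp3 fell (-3.65 ± 0.19). Of 19 integrin genes 6 rose and 5 fell, beside 21.0% and 29.5% of all genes, with Itga3, a laminin receptor subunit, at 3.12 and 3.24 in shIno80, against 0.83 and 0.51 in shNT (2.51 ± 0.15) and Itgb7 lower (-2.47 ± 0.10). Of 46 proteasome genes 22 fell and 2 rose, with 14 lower without shIno80 replicate 2 and 1 higher without that array, shIno80 replicate 1 or shNT replicate 2.

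Where a gene had several measured probes, they did not always move alike. Of 3782 such genes that were called at day 6, all probes were called in the same direction for 2295, and probes were called in both directions for 91.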
